A study of Mus musculus with 16 samples.

Results

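The genes described here encode the machinery that builds autophagosomes, the cargo receptors that load them, and the membrane proteins, hydrolases and proton pump of the lysosome. They were chosen by name, as the rows of the gene table whose symbol is on a list of 46 genes. They make up 46 of the 24019 genes in the table. The list was drawn up with earlier results of these data known, so it is not an independent choice. The genes were read in 16 libraries of whole mouse pancreas, 4 in each of 4 groups. Of the 46, 44 had enough counts to be tested, among 8236 tested genes. The Adam17ex cerulein and WT cerulein groups received cerulein, and the Adam17ex PBS and WT PBS groups received phosphate-buffered saline. WT animals were C57BL/6J, and the Adam17ex animals were homozygous for Adam17ex, an allele with reduced function at the locus of ADAM17, an enzyme that sheds proteins from the cell surface. All were littermates of 6 to 8 weeks. Cerulein, an analogue of the hormone cholecystokinin that overstimulates the enzyme-secreting acinar cells and induces acute pancreatitis, was injected into the peritoneum at 50 µg/kg hourly, 7 times, and tissue was taken 1 hour after the last injection. The groups held 2 males and 2 females in Adam17ex cerulein, 1 male and 3 females in WT cerulein, 2 males and 2 females in Adam17ex PBS, and 0 males and 4 females in WT PBS. The labels number the replicates but do not say that each is a separate mouse, so the p-values measure the spread between these libraries.

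Autophagy encloses cytoplasm in a membrane that the ULK1 kinase complex and the beclin 1 lipid kinase start, that WIPI proteins and VMP1 help to grow, and on which ubiquitin-like ATG8 proteins (the LC3 and GABARAP families) are fixed by a conjugation system. Cargo receptors such as p62, the product of Sqstm1, bind both their cargo and the ATG8 proteins and are themselves degraded once the vesicle fuses with a lysosome, whose lumen is kept acid by the vacuolar proton pump and holds cathepsins and other hydrolases. In acinar cells these enzymes bear on pancreatitis: cathepsin B can activate trypsinogen, cathepsin L can degrade it, and VMP1 was identified in inflamed rat pancreas.

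Depth was 455547 to 1476159 unique molecular identifiers (UMIs, each standing for 1 captured transcript end) per library, and 3 of the 4 Adam17ex PBS libraries were the shallowest, at 455547 to 492878. Adam17, the altered gene, had 3, 4, 2 and 6 UMIs in Adam17ex cerulein, 17, 10, 27 and 14 in WT cerulein, 1, 1, 3 and 5 in Adam17ex PBS, and 12, 16, 5 and 8 in WT PBS. Its log2 fold change of Adam17ex over WT was -2.05 ± 0.40 under cerulein (edgeR adjusted p = 0.00137) and -1.21 ± 0.49 under PBS (adjusted p = 0.21). The reads come from transcript ends and need not cover the changed part of the allele. Levels are given as counts per 1000000 counts of the library, scaled by the trimmed mean of M values (CPM). All 15 of 15 acinar markers were detected in every library, at 197226 to 245791 CPM in Adam17ex cerulein, 127438 to 192230.0 CPM in WT cerulein, 166105 to 293039 CPM in Adam17ex PBS and 221184 to 289016 CPM in WT PBS. The macrophage marker sum was 1274 CPM in Adam17ex PBS replicate 3, against 182.7 to 408 CPM in the other Adam17ex PBS libraries, and a member's call that changes without that library is named beside the gene.

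With cerulein, the genes for p62, cathepsin L, VMP1, WIPI2, beclin 1, GABARAPL1, TAX1BP1, CD63 and the pump subunit ATP6V1B2 were higher than with PBS in both genotypes, and those for ULK1, NBR1, LAMP1, cathepsin A, cathepsin H and NPC2 were lower in both. In Adam17ex pancreas 20 of the 44 tested members changed with cerulein, against 30.3% of all tested genes: 9 rose, where 14.1% of all genes did, and 11 fell, where 16.2% did. In WT pancreas 26 of 44 changed, against 41.1% of all tested genes: 14 rose (19.8% of all genes) and 12 fell (21.3%). Since the list was not an independent choice, these shares, here and below, are a description and no test of the list. The median log2 fold change over the 44 members was -0.18 in Adam17ex and -0.11 in WT, beside -0.03 and -0.04 over all tested genes. A gene counts as changed here when its adjusted p from edgeR's quasi-likelihood test, with Benjamini-Hochberg adjustment over all tested genes, was below 0.05; each fold change is given with its standard error and is adjusted for sex, so it can differ from the ratio of the group means. In whole tissue fewer cells of a type and less RNA per cell cannot be told apart. Unless another setting is named, a call described below as lost was lost with 1 library left out. Losses under other settings are given at the end. Without Adam17ex PBS replicate 3 the counts were 16 in Adam17ex and 27 in WT, where Optn was then tested. With females only they were 9 in Adam17ex and 24 in WT. Without Adam17ex PBS replicate 4 the Adam17ex count was 12, and without the 3 shallow Adam17ex PBS libraries it was 10. The calls lost there were those for Tax1bp1, Atp6v1b2, Neu1, Nbr1, Cd63, Wipi2, Gabarapl1, Ctsh, Grn and Becn1. Markers of other cells moved with cerulein too: in Adam17ex 9 of 10 tested islet markers, 5 of 6 fibroblast, 4 of 5 adipocyte and 2 of 2 B and plasma cell markers fell, and in WT 0 of 10, 1 of 6, 5 of 5 and 2 of 2. Islet sums were 1733 to 6095 CPM in Adam17ex cerulein, 1315 to 9056 CPM in WT cerulein, 4993 to 21859 CPM in Adam17ex PBS and 4236 to 13142 CPM in WT PBS. In WT 9 of 15 acinar markers fell and 1, Ptf1a, rose, while 4 of 5 duct markers rose and 1, Muc1, fell. Their part in the counts was not tested. The plot of cerulein effects by role shows all 44 genes side by side.

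**Figure D1:**
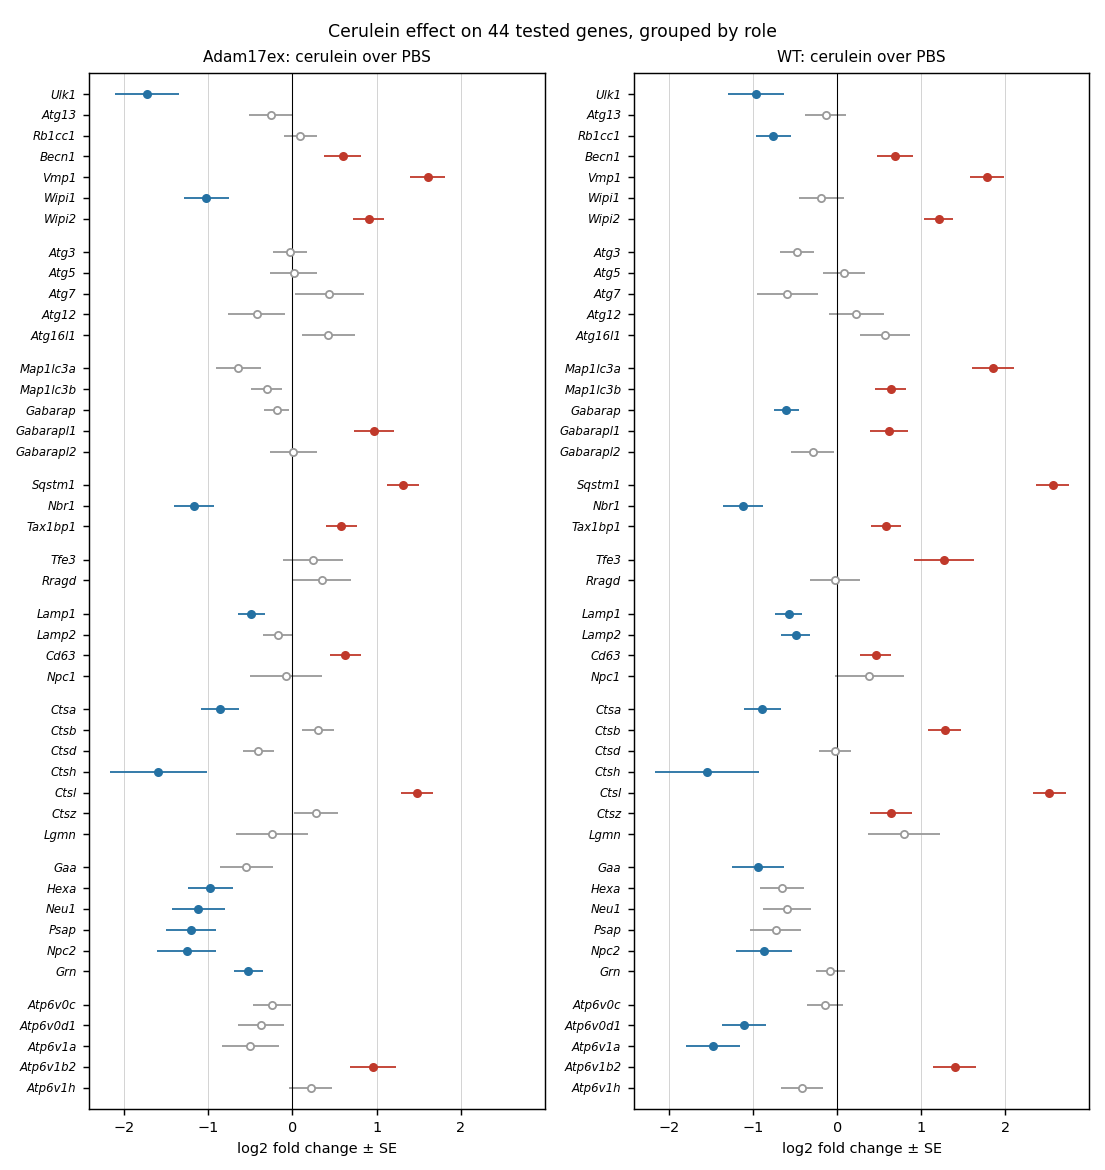
The log2 fold change of cerulein over PBS (x axis, ± SE) for each of the 44 tested genes, grouped by role from top to bottom, in Adam17ex on the left and WT on the right; filled red points rose and filled blue points fell at an edgeR adjusted p below 0.05, and open points did not pass. Every role except the cargo receptors holds open points, and all tested cargo receptor genes passed in both genotypes. Sqstm1 and Ctsl lie furthest to the right in WT, at 2.56 and 2.52.

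Many lysosomal genes are known to carry an E-box in their promoters, and 6 promoters are shown because they belong to the members that hold its core CACGTG and that changed with cerulein in WT. RefSeq promoters (GRCm38.p6, 250 bases before to 50 after a transcript start) were matched by symbol for 36 of the 46 members, and CACGTG, which reads the same on both strands, stood in 11 of the 36, or 30.6%, against 8.09% of the 27025 genes with a promoter in the table. The longer TCACGTGA, of which CACGTG is a part, stood in 5 (Atg3, Atp6v0d1, Atp6v1a, Ctsa and Ctsd), or 13.9%, against 1.12% of genes. All 11 members with the core were tested. In WT, cerulein lowered Atp6v0d1, Atp6v1a, Ctsa, Gaa and Lamp1 and raised Ctsl, and the other 5 (Atg3, Atg5, Atg7, Ctsd and Lgmn) did not pass. Of the 23 tested members whose promoters lack it, 9 rose and 5 fell. Over all tested genes with a promoter, 20.9% of those with the core rose and 23.3% fell, beside 20.8% and 21.9% of those without it. Of the other motifs searched on both strands, TGANTCA (AP-1) stood in 8.33% of the 36 members and 8.97% of genes, TGACNNNGC (the antioxidant response core) in 9 of the 36 members and 3781 of the 27025 genes, and TGATGNAA (ATF4) in 5.56% and 4.51%. The promoters lie at chr13:64370471-64370770 (minus strand, Ctsl), chr2:164833523-164833822 (plus strand, Ctsa), chr11:119267713-119268012 (plus strand, Gaa), chr8:13158911-13159210 (plus strand, Lamp1), chr8:105566015-105566314 (minus strand, Atp6v0d1) and chr16:44139210-44139509 (minus strand, Atp6v1a), and run 5′ to 3′ on the gene's strand with each CACGTG in capitals; Lamp1 holds 4 copies and Ctsa 2.
Ctsl: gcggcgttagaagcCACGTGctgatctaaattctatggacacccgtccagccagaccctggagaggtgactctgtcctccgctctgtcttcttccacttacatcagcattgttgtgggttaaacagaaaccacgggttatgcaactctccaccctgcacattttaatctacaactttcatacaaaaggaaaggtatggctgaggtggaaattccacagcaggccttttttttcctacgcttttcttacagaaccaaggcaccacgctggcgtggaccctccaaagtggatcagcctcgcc
Ctsa: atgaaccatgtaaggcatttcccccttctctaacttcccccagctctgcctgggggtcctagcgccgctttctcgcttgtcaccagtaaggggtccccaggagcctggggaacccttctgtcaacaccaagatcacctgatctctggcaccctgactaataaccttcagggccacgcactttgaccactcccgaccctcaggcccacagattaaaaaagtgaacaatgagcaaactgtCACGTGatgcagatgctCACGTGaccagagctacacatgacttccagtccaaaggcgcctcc
Gaa: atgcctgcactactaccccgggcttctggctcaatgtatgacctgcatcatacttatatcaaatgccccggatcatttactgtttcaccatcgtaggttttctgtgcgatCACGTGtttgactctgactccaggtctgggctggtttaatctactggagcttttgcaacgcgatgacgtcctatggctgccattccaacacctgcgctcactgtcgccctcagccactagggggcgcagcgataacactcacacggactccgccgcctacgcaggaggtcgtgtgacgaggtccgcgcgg
Lamp1: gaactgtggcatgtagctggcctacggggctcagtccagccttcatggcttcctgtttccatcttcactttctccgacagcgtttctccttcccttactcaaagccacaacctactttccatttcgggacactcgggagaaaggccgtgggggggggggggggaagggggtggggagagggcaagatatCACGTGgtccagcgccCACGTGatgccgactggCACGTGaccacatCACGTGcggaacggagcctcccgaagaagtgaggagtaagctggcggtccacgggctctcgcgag
Atp6v0d1: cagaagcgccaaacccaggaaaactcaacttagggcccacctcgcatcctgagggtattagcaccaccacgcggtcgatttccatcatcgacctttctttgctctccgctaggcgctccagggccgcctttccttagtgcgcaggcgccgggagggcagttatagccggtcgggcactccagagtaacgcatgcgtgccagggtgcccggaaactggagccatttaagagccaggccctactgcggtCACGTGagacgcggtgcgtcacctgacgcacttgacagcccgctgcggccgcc
Atp6v1a: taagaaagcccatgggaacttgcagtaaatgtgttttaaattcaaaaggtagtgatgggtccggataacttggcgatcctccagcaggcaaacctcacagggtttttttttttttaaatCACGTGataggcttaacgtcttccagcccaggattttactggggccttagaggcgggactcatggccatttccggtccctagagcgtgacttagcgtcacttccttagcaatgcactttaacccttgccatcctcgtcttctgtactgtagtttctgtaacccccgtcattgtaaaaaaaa

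Among the 7 initiation and nucleation genes, Vmp1, Wipi2 and Becn1 rose with cerulein in both genotypes and Ulk1 fell in both. Vmp1, which encodes an endoplasmic reticulum membrane protein needed for autophagosome growth, rose most of the 7. Vmp1 was at 185, 135, 132 and 147 CPM in Adam17ex cerulein and 204, 199.9, 169 and 162 CPM in WT cerulein. Vmp1 with PBS was at 66.0, 30.2, 52.9 and 48.3 CPM in Adam17ex PBS and 43.6, 64.7, 50.2 and 50.2 CPM in WT PBS. Every cerulein library was above every PBS library. Its log2 fold change was 1.60 ± 0.21 (adjusted p = 5.45e-06) in Adam17ex and 1.78 ± 0.20 (adjusted p = 2.32e-07) in WT. A processed pseudogene, Gm11478, is counted inside Vmp1 on the same strand and showed 0.08 ± 0.17 (adjusted p = 0.759) and -0.01 ± 0.17 (adjusted p = 0.959). Wipi2, whose product binds the lipid mark of the growing membrane, followed the same pattern. Wipi2 was at 112, 85.0, 98.4 and 90.4 CPM in Adam17ex cerulein and 109, 123, 149.6 and 115 CPM in WT cerulein. Wipi2 with PBS was at 33.0, 68.0, 45.1 and 60.1 CPM in Adam17ex PBS and 56.2, 60.4, 60.4 and 49.0 CPM in WT PBS. The cerulein and PBS libraries did not overlap. The fold change was 0.90 ± 0.19 (adjusted p = 0.000807) in Adam17ex and 1.21 ± 0.17 (adjusted p = 7.82e-06) in WT. Becn1, a subunit of the lipid kinase complex, rose by 0.60 ± 0.22 (adjusted p = 0.0475) in Adam17ex and 0.68 ± 0.21 (adjusted p = 0.0129) in WT. The Adam17ex call for Becn1 was lost without any of Adam17ex cerulein replicates 1, 2, 3 or 4, WT cerulein replicates 1, 2, 3 or 4 or Adam17ex PBS replicates 3 or 4 in turn (log2 fold changes from 0.55 to 0.66, adjusted p from 0.0502 to 0.119).

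Ulk1, the kinase that starts the process, moved the other way. Ulk1 was at 5.15, 3.47, 3.51 and 6.65 CPM in Adam17ex cerulein and 7.94, 8.65, 5.59 and 7.26 CPM in WT cerulein. Ulk1 with PBS was at 7.61, 20.2, 15.7 and 19.7 CPM in Adam17ex PBS and 13.8, 16.7, 20.5 and 9.57 CPM in WT PBS. Within each genotype the cerulein libraries lay below the PBS libraries without overlap. The fold change was -1.72 ± 0.38 (adjusted p = 0.00155) in Adam17ex and -0.96 ± 0.33 (adjusted p = 0.024) in WT, from 158 UMIs in all. The WT call for Ulk1 was lost without any of WT cerulein replicates 3 or 4 or WT PBS replicates 2 or 3 in turn (log2 fold changes from -0.89 to -0.75, adjusted p from 0.0716 to 0.12). Rb1cc1 encodes FIP200, a scaffold of the same kinase complex. Rb1cc1 was at 88.6, 87.6, 85.5 and 68.5 CPM in Adam17ex cerulein and 48.5, 29.2, 49.6 and 34.7 CPM in WT cerulein. Rb1cc1 with PBS was at 93.9, 88.2, 56.9 and 71.9 CPM in Adam17ex PBS and 79.1, 56.0, 70.7 and 65.8 CPM in WT PBS. The WT cerulein libraries were the lowest of the 16, and the other 3 groups overlapped one another. Rb1cc1 fell in WT, at -0.76 ± 0.21 (adjusted p = 0.00486), and had 0.09 ± 0.20 (adjusted p = 0.754) in Adam17ex. Under cerulein it was higher in Adam17ex than in WT, by 0.98 ± 0.20 (adjusted p = 0.00224). The difference between the cerulein effects was 0.85 ± 0.29 (adjusted p = 0.0768). Wipi1, another binder of the lipid mark, averaged 22.0 ± 5.08 CPM in Adam17ex cerulein, 22.9 ± 7.64 CPM in WT cerulein, 43.8 ± 9.84 CPM in Adam17ex PBS and 26.6 ± 6.84 CPM in WT PBS (SD, n = 4 each). It fell in Adam17ex, at -1.02 ± 0.27 (adjusted p = 0.00614), and had -0.19 ± 0.27 (adjusted p = 0.596) in WT, where cerulein and PBS libraries overlapped. The Adam17ex call was lost without Adam17ex cerulein replicate 4 (-0.81, adjusted p = 0.05) and without Adam17ex PBS replicate 4 (-0.81, adjusted p = 0.0592). Atg13, the remaining subunit of the kinase complex listed here, had -0.25 ± 0.26 in Adam17ex and -0.14 ± 0.24 in WT and passed in no comparison.

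None of the 5 conjugation enzymes passed the test for cerulein in either genotype with all libraries, with log2 fold changes from -0.42 to 0.44 in Adam17ex and from -0.59 to 0.57 in WT. These are Atg7, the activating enzyme, Atg3, which transfers LC3 to lipid, and Atg5, Atg12 and Atg16l1, which form the complex that places LC3 on the membrane. Atg3 differed between the genotypes under cerulein. Atg3 was at 50.5, 41.6, 37.5 and 37.2 CPM in Adam17ex cerulein and 22.1, 32.4, 21.7 and 26.6 CPM in WT cerulein. Atg3 with PBS was at 50.8, 37.8, 35.3 and 45.3 CPM in Adam17ex PBS and 39.0, 32.0, 41.0 and 33.5 CPM in WT PBS. The WT cerulein libraries lay below the Adam17ex cerulein libraries without overlap. Atg3 was higher in Adam17ex cerulein than in WT cerulein by 0.74 ± 0.20 (adjusted p = 0.0197), and its difference between cerulein effects was 0.45 ± 0.29 (adjusted p = 0.373). With cerulein in WT, Atg3 had -0.48 (adjusted p = 0.0626), and it passed as lower without WT cerulein replicate 2 (-0.60 ± 0.22, adjusted p = 0.0385) and without the sex term (-0.51 ± 0.20, adjusted p = 0.0409). The genotype call for Atg3 was lost without any of Adam17ex cerulein replicates 1 or 2 or WT cerulein replicates 1 or 3 in turn (log2 fold changes from 0.63 to 0.71, adjusted p from 0.0529 to 0.127).

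**Figure D2:**
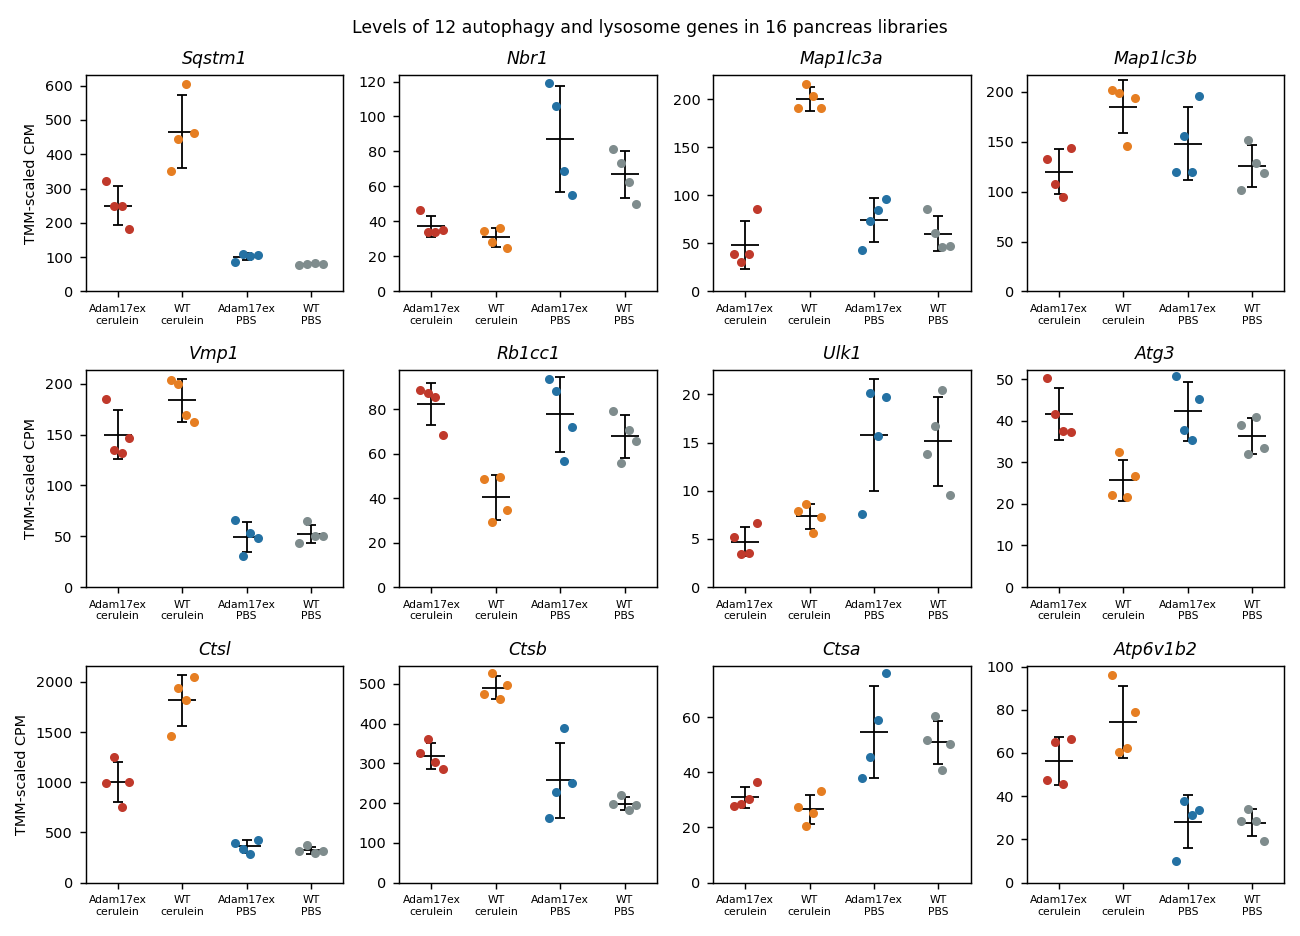
Level of 12 members in each of the 16 libraries, in TMM-scaled CPM on the y axis from 0, by group; points are libraries in replicate order, the horizontal bar is the group mean and the whiskers are 1 SD (n = 4). Map1lc3a stands at 190.5 to 216 CPM in WT cerulein and at or below 96.6 CPM in every other library, and Rb1cc1 is lowest in WT cerulein, at 29.2 to 49.6 CPM.

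The ATG8 family held the largest difference in cerulein effect between the genotypes among the 44 members. Map1lc3a, 1 of the LC3 genes whose product is fixed to autophagosome membranes, rose in WT pancreas, and its fold change in Adam17ex pancreas was negative and did not pass the test with all libraries. Map1lc3a was at 39.1, 30.4, 38.7 and 85.7 CPM in Adam17ex cerulein and 191, 216, 203 and 190.5 CPM in WT cerulein. Map1lc3a with PBS was at 43.1, 73.1, 84.3 and 96.6 CPM in Adam17ex PBS and 86.0, 60.4, 46.1 and 47.8 CPM in WT PBS. The WT cerulein libraries stood far above all others, and Adam17ex cerulein replicate 4 stood above its own group. The fold change was -0.64 ± 0.26 (adjusted p = 0.0692) in Adam17ex and 1.86 ± 0.25 (adjusted p = 3.27e-06) in WT. Without Adam17ex cerulein replicate 4 the Adam17ex value passed as lower, at -0.97 ± 0.26 (adjusted p = 0.00871). Under cerulein Map1lc3a was lower in Adam17ex than in WT, at -1.95 ± 0.25 (adjusted p = 1.29e-05). The cerulein effects differed by -2.50 ± 0.36 (adjusted p = 0.000228). All 26 alternative settings kept the genotype call and all 25 kept the difference of effects. Map1lc3b, a close relative, had fold changes of the same signs that lay nearer to 0. It averaged 119.9 ± 22.6 CPM in Adam17ex cerulein, 185 ± 26.6 CPM in WT cerulein, 148 ± 36.6 CPM in Adam17ex PBS and 125 ± 20.9 CPM in WT PBS, and its WT cerulein and WT PBS libraries overlapped. The fold change was -0.31 ± 0.19 (adjusted p = 0.22) in Adam17ex and 0.64 ± 0.19 (adjusted p = 0.00808) in WT, with -0.57 ± 0.18 (adjusted p = 0.047) for Adam17ex over WT under cerulein and -0.95 ± 0.26 (adjusted p = 0.0332) for the difference of effects. The genotype call for Map1lc3b was lost without any of Adam17ex cerulein replicates 1, 2, 3 or 4, WT cerulein replicates 1, 2 or 4, Adam17ex PBS replicate 2 or WT PBS replicates 3 or 4 in turn (log2 fold changes from -0.63 to -0.36, adjusted p from 0.0543 to 0.381). The call of the difference was lost without any of Adam17ex cerulein replicates 2 or 3, WT cerulein replicates 1 or 2, Adam17ex PBS replicate 4 or WT PBS replicates 1, 3 or 4 in turn (log2 fold changes from -0.96 to -0.74, adjusted p from 0.0622 to 0.099). Zcchc14, on the opposite strand over the 3′ end of Map1lc3b, fell with cerulein in Adam17ex, at -1.28 ± 0.33 (adjusted p = 0.00567), and had -0.37 ± 0.30 (adjusted p = 0.336) in WT. For Zcchc14 the genotype value under cerulein was -0.60 ± 0.32 (adjusted p = 0.266) and the difference of effects -0.91 ± 0.45 (adjusted p = 0.236). Reads of the 2 genes cannot be told apart where strand was not used, and whether the counting used strand is not given in the sources used here.

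In the GABARAP branch of the family, Gabarapl1 rose in both genotypes and Gabarap fell in WT. Gabarapl1 was at 93.7, 89.3, 65.6 and 96.4 CPM in Adam17ex cerulein and 67.0, 49.7, 74.8 and 77.5 CPM in WT cerulein. Gabarapl1 with PBS was at 45.7, 30.2, 49.0 and 48.3 CPM in Adam17ex PBS and 49.3, 60.4, 27.7 and 39.5 CPM in WT PBS. Cerulein libraries were above PBS libraries in Adam17ex, and the groups overlapped in WT. Gabarapl1 rose by 0.97 ± 0.23 (adjusted p = 0.00334) in Adam17ex and 0.62 ± 0.22 (adjusted p = 0.0312) in WT. The Gabarapl1 call in WT was lost without any of WT cerulein replicates 3 or 4 or WT PBS replicates 3 or 4 in turn (log2 fold changes from 0.47 to 0.59, adjusted p from 0.0658 to 0.107). Gabarap was at 211, 237, 200.3 and 244 CPM in Adam17ex cerulein and 176, 180.5, 181 and 207 CPM in WT cerulein. Gabarap with PBS was at 279, 252, 231 and 254 CPM in Adam17ex PBS and 260.4, 288, 281 and 312 CPM in WT PBS. Here WT cerulein lay below WT PBS without overlap, and the Adam17ex groups overlapped. Gabarap fell in WT, at -0.61 ± 0.15 (adjusted p = 0.00232), and had -0.19 ± 0.15 (adjusted p = 0.363) in Adam17ex, while Gabarapl2 had 0.01 ± 0.28 and -0.29 ± 0.26 and passed in neither.

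Of the cargo receptors, Sqstm1 and Tax1bp1 rose and Nbr1 fell in both genotypes. Sqstm1, the gene for p62, had the smallest p of the members. Sqstm1 was at 321, 249, 249.5 and 182 CPM in Adam17ex cerulein and 350.2, 443, 606 and 463 CPM in WT cerulein. Sqstm1 with PBS was at 86.3, 108, 104 and 105 CPM in Adam17ex PBS and 78.0, 81.5, 84.0 and 81.3 CPM in WT PBS. Every WT cerulein library was above every Adam17ex cerulein library, and both were above all PBS libraries. The fold change was 1.31 ± 0.19 (adjusted p = 2.18e-05) in Adam17ex and 2.56 ± 0.19 (adjusted p = 6.66e-10) in WT, and under cerulein Adam17ex was lower than WT, at -0.83 ± 0.18 (adjusted p = 0.00408). Between the genotypes, the cerulein effects differed by -1.25 ± 0.26 (adjusted p = 0.00666). The calls for cerulein and for genotype under cerulein were kept in all 26 alternative settings, and the difference of effects in 23 of 25. Nbr1, a receptor with a domain plan like that of p62, did the opposite. Nbr1 was at 46.3, 33.8, 34.0 and 35.2 CPM in Adam17ex cerulein and 34.4, 28.1, 36.3 and 25.0 CPM in WT cerulein. Nbr1 with PBS was at 119, 106, 68.6 and 55.2 CPM in Adam17ex PBS and 81.4, 73.5, 62.5 and 50.2 CPM in WT PBS. In each genotype the cerulein libraries lay below the PBS libraries without overlap. Its fold change was -1.17 ± 0.24 (adjusted p = 0.000811) in Adam17ex and -1.12 ± 0.24 (adjusted p = 0.000616) in WT. The difference between the cerulein effects was -0.05 ± 0.34 (adjusted p = 0.96). Tax1bp1, a receptor that also binds ubiquitin-tagged cargo, rose by 0.58 ± 0.18 (adjusted p = 0.0173) in Adam17ex and 0.58 ± 0.18 (adjusted p = 0.0124) in WT. The Tax1bp1 call in WT was lost without WT cerulein replicate 2 (log2 fold change 0.45, adjusted p = 0.0675). With females only the Adam17ex calls for Nbr1 and Tax1bp1 were lost. Optn, the gene for optineurin, had too few counts for the filter, with 120 UMIs in all. Without a filter its cerulein fold change was 1.27 ± 0.47 (adjusted p = 0.0584) in Adam17ex and 1.37 ± 0.51 (adjusted p = 0.0498) in WT. With 1 library left out Optn could pass the filter, and its largest fold changes among the calls then made were 1.49 ± 0.49 (adjusted p = 0.0304) in Adam17ex, without Adam17ex cerulein replicate 4, and 1.58 ± 0.54 (adjusted p = 0.0241) in WT, without WT cerulein replicate 2.

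The transcriptional regulators of lysosome genes had few counts. Tfeb, the best known of them, had 26 UMIs over the 16 libraries and was not tested. Tfe3 was at 24.7, 14.7, 19.9 and 15.3 CPM in Adam17ex cerulein and 16.8, 31.3, 15.4 and 12.9 CPM in WT cerulein. Tfe3 with PBS was at 7.61, 22.7, 17.6 and 14.8 CPM in Adam17ex PBS and 12.6, 6.55, 5.12 and 8.37 CPM in WT PBS. For this relative of Tfeb, WT cerulein lay above WT PBS without overlap, and the Adam17ex groups overlapped. Tfe3 rose by 1.27 ± 0.36 (adjusted p = 0.00694) in WT and had 0.24 ± 0.36 (adjusted p = 0.641) in Adam17ex. The difference between the cerulein effects was -1.03 ± 0.51 (adjusted p = 0.248). Rragd, a nutrient-sensing GTPase gene that TFEB is known to activate, had 0.35 ± 0.35 (adjusted p = 0.486) in Adam17ex and -0.03 ± 0.30 (adjusted p = 0.952) in WT.

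Among the lysosomal proteases, cathepsin L and cathepsin B genes were higher in WT with cerulein and those for cathepsins A and H lower. Ctsl encodes the cysteine protease cathepsin L. Ctsl was at 992, 1246, 757 and 1003 CPM in Adam17ex cerulein and 1464, 1938, 1819 and 2052 CPM in WT cerulein. Ctsl with PBS was at 396, 335, 284 and 425 CPM in Adam17ex PBS and 313, 373, 291 and 319 CPM in WT PBS. Each cerulein library exceeded each PBS library, and each WT cerulein library exceeded each Adam17ex cerulein library. The fold change was 1.48 ± 0.19 (adjusted p = 4.44e-06) in Adam17ex and 2.52 ± 0.19 (adjusted p = 1.09e-09) in WT. Under cerulein Adam17ex was lower than WT, at -0.81 ± 0.19 (adjusted p = 0.00651), a call kept in all 26 alternatives. The cerulein effects differed by -1.05 ± 0.26 (adjusted p = 0.0188). The call of the difference for Ctsl was lost without any of Adam17ex cerulein replicate 3 or WT PBS replicate 3 in turn (log2 fold changes from -0.96 to -0.92, adjusted p from 0.054 to 0.0669). It was also lost without a filter on low counts and with females only. Ctsb encodes cathepsin B. Ctsb was at 325, 361, 303 and 284 CPM in Adam17ex cerulein and 475, 527, 463 and 497 CPM in WT cerulein. Ctsb with PBS was at 162, 227, 388 and 250.3 CPM in Adam17ex PBS and 198, 219, 181 and 196 CPM in WT PBS. WT cerulein was above all other libraries, and the Adam17ex groups overlapped while Adam17ex PBS replicate 3 stood at 388 CPM. Ctsb rose by 1.28 ± 0.20 (adjusted p = 1.99e-05) in WT and had 0.30 ± 0.19 (adjusted p = 0.249) in Adam17ex. Under cerulein Adam17ex was lower, at -0.65 ± 0.20 (adjusted p = 0.0365). Between the genotypes, the cerulein effects differed by -0.97 ± 0.28 (adjusted p = 0.0377). Without Adam17ex PBS replicate 3, Ctsb rose in Adam17ex by 0.64 ± 0.18 (adjusted p = 0.0124), and the difference of effects was -0.72 ± 0.24 (adjusted p = 0.0865). The genotype call for Ctsb was lost without any of Adam17ex cerulein replicates 1, 2, 3 or 4 or WT cerulein replicates 1, 2, 3 or 4 in turn (log2 fold changes from -0.75 to -0.60, adjusted p from 0.0508 to 0.13), and that of the difference without any of Adam17ex cerulein replicates 2, 3 or 4, WT cerulein replicates 2, 3 or 4, Adam17ex PBS replicates 3 or 4 or WT PBS replicates 1, 3 or 4 in turn (log2 fold changes from -1.04 to -0.72, adjusted p from 0.057 to 0.0983). Fdft1, which overlaps the 3′ end of Ctsb on the opposite strand, had 0.27 ± 0.22 (adjusted p = 0.341) for cerulein in WT.

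Ctsa encodes cathepsin A, a carboxypeptidase that also protects neuraminidase in the lysosome. Ctsa was at 27.8, 28.6, 30.5 and 36.6 CPM in Adam17ex cerulein and 27.3, 20.5, 25.2 and 33.1 CPM in WT cerulein. Ctsa with PBS was at 38.1, 45.4, 58.8 and 75.9 CPM in Adam17ex PBS and 51.6, 60.4, 41.0 and 50.2 CPM in WT PBS. The cerulein libraries were below the PBS libraries in each genotype, without overlap. Ctsa fell in both genotypes, at -0.86 ± 0.22 (adjusted p = 0.00551) in Adam17ex and -0.89 ± 0.22 (adjusted p = 0.00236) in WT. The Ctsa call in Adam17ex was lost without Adam17ex PBS replicate 4 (log2 fold change -0.57, adjusted p = 0.0975). Pltp, on the opposite strand over its 3′ end, fell as well, at -1.90 ± 0.43 (adjusted p = 0.00194) and -1.86 ± 0.51 (adjusted p = 0.00552), and the reads of the pair cannot be told apart where strand was not used. Ctsh, an aminopeptidase gene with 130 UMIs, fell in both genotypes, at -1.59 ± 0.57 (adjusted p = 0.0392) in Adam17ex and -1.55 ± 0.61 (adjusted p = 0.0476) in WT, with overlapping libraries. The Adam17ex call for Ctsh was lost without any of Adam17ex cerulein replicates 2, 3 or 4, Adam17ex PBS replicate 3 or WT PBS replicate 4 in turn (log2 fold changes from -1.68 to -0.10, adjusted p from 0.0525 to 0.918), and the WT call without any of Adam17ex cerulein replicates 1, 2, 3 or 4, WT cerulein replicates 1, 2, 3 or 4, Adam17ex PBS replicates 2 or 4 or WT PBS replicates 1, 2 or 4 in turn (log2 fold changes from -1.72 to -1.35, adjusted p from 0.0501 to 0.121). Ctsz, a carboxypeptidase gene, rose by 0.64 ± 0.25 (adjusted p = 0.0416) in WT and had 0.28 ± 0.26 (adjusted p = 0.438) in Adam17ex. The Ctsz call in WT was lost without any of WT cerulein replicates 2, 3 or 4 or WT PBS replicates 1, 3 or 4 in turn (log2 fold changes from 0.54 to 0.68, adjusted p from 0.0554 to 0.111). Ctsd, the aspartic protease gene, and Lgmn, the legumain gene, passed in no comparison over all 16 libraries, with cerulein fold changes of -0.40 ± 0.19 and -0.24 ± 0.43 in Adam17ex and -0.03 ± 0.19 and 0.79 ± 0.42 in WT. Lgmn passed as higher with cerulein in WT without Adam17ex PBS replicate 3 (0.94 ± 0.36, adjusted p = 0.0422) and without WT PBS replicate 2 (1.47 ± 0.47, adjusted p = 0.0167), and Ctsd as lower in Adam17ex without Adam17ex PBS replicate 2 (-0.52 ± 0.19, adjusted p = 0.0487). Summed over the 7 protease genes, the level was 1561 ± 216 CPM in Adam17ex cerulein, 2569 ± 282 CPM in WT cerulein, 929 ± 158 CPM in Adam17ex PBS and 788 ± 103 CPM in WT PBS. These sums are weighted to Ctsl, whose own means were 999, 1818, 360 and 324 CPM in the same order.

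The 6 genes of other hydrolases and lumenal proteins all had negative cerulein fold changes in both genotypes. In Adam17ex, 5 fell (Psap, Npc2, Neu1, Hexa and Grn), where 16.2% of all tested genes did. In WT 2 fell (Npc2 and Gaa), where 21.3% did. Without Adam17ex PBS replicate 3, Neu1 and Hexa still passed as lower in Adam17ex, and Psap, Npc2 and Grn did not pass. The list's median was -1.05 in Adam17ex and -0.69 in WT, beside -0.03 and -0.04 over all tested genes. The summed level of the 6 genes was 183 ± 13.8 CPM in Adam17ex cerulein, 188 ± 8.47 CPM in WT cerulein, 318 ± 111 CPM in Adam17ex PBS and 247 ± 21.6 CPM in WT PBS. Psap is the precursor of the saposins, which help to degrade sphingolipids. Psap was at 15.4, 24.3, 37.5 and 19.3 CPM in Adam17ex cerulein and 16.8, 22.7, 24.5 and 20.2 CPM in WT cerulein. Psap with PBS was at 33.0, 25.2, 102 and 52.2 CPM in Adam17ex PBS and 35.6, 28.4, 33.8 and 33.5 CPM in WT PBS. Adam17ex PBS replicate 3 was the highest of all libraries, and without it the Adam17ex PBS group reached 52.2 CPM. Psap fell, at -1.21 ± 0.30 (adjusted p = 0.00386) in Adam17ex, and without that library its fold change was -0.73 ± 0.30 (adjusted p = 0.0773). In WT it was -0.73 ± 0.30 (adjusted p = 0.0572), and it passed there without Adam17ex PBS replicate 1 (-0.74 ± 0.28, adjusted p = 0.0351). The product of Npc2 takes part in the export of cholesterol from the lysosome. Npc2 was at 15.4, 29.5, 22.3 and 22.6 CPM in Adam17ex cerulein and 30.9, 22.7, 20.97 and 30.7 CPM in WT cerulein. Npc2 with PBS was at 17.8, 25.2, 118 and 50.3 CPM in Adam17ex PBS and 31.0, 56.7, 36.9 and 47.8 CPM in WT PBS. Again Adam17ex PBS replicate 3 stood highest, and the WT groups did not overlap. Npc2 fell in both genotypes, at -1.25 ± 0.35 (adjusted p = 0.00938) in Adam17ex and -0.87 ± 0.34 (adjusted p = 0.0428) in WT. The Npc2 call in Adam17ex was lost without any of Adam17ex PBS replicates 3 or 4 in turn (log2 fold changes from -1.10 to -0.59, adjusted p from 0.0508 to 0.197). The Npc2 call in WT was lost without any of Adam17ex cerulein replicates 1, 2 or 4, WT cerulein replicates 1, 2 or 3, Adam17ex PBS replicate 2 or WT PBS replicates 2, 3 or 4 in turn (log2 fold changes from -0.91 to -0.65, adjusted p from 0.0505 to 0.167).

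Neu1 encodes the lysosomal sialidase, and Hexa a chain of beta-hexosaminidase. Neu1 was at 11.3, 16.5, 7.03 and 9.97 CPM in Adam17ex cerulein and 8.82, 11.9, 21.7 and 13.7 CPM in WT cerulein. Neu1 with PBS was at 25.4, 25.2, 19.6 and 28.6 CPM in Adam17ex PBS and 24.1, 23.3, 25.6 and 16.7 CPM in WT PBS. Hexa was at 12.4, 22.5, 21.1 and 19.3 CPM in Adam17ex cerulein and 27.3, 17.3, 16.8 and 16.1 CPM in WT cerulein. Hexa with PBS was at 25.4, 27.7, 39.2 and 47.3 CPM in Adam17ex PBS and 24.1, 27.6, 23.6 and 40.7 CPM in WT PBS. In Adam17ex the cerulein libraries lay below the PBS libraries for both genes, and in WT the groups overlapped. In Adam17ex both fell, Neu1 at -1.12 ± 0.32 (adjusted p = 0.00983) and Hexa at -0.98 ± 0.27 (adjusted p = 0.00832), and in WT they had -0.59 ± 0.28 (adjusted p = 0.0983) and -0.65 ± 0.26 (adjusted p = 0.0502). In WT Neu1 passed as lower without WT cerulein replicate 3 (-0.88 ± 0.31, adjusted p = 0.0306). Hexa in WT passed as lower without WT cerulein replicate 1 (adjusted p = 0.0387) and without Adam17ex PBS replicates 1 (adjusted p = 0.0398) or 4 (adjusted p = 0.0237). The call for Hexa was lost without Adam17ex PBS replicate 4 (log2 fold change -0.56, adjusted p = 0.17), and that for Neu1 without Adam17ex cerulein replicate 4 (log2 fold change -0.91, adjusted p = 0.0651) or Adam17ex PBS replicate 4 (adjusted p = 0.0542). Without Adam17ex PBS replicate 3 they were -0.95 ± 0.30 (adjusted p = 0.0246) for Hexa and -1.14 ± 0.35 (adjusted p = 0.0191) for Neu1. Grn, the progranulin gene, fell in Adam17ex, at -0.52 ± 0.17 (adjusted p = 0.0221), and had -0.08 ± 0.17 (adjusted p = 0.735) in WT. The Grn call in Adam17ex was lost without any of Adam17ex cerulein replicates 2, 3 or 4 or Adam17ex PBS replicates 3 or 4 in turn (log2 fold changes from -0.50 to -0.32, adjusted p from 0.0539 to 0.185). Gaa, the acid alpha-glucosidase gene, fell in WT, at -0.94 ± 0.31 (adjusted p = 0.0184), and had -0.55 ± 0.31 (adjusted p = 0.194) in Adam17ex. The Gaa call in WT was lost without any of WT cerulein replicate 4 or WT PBS replicate 2 in turn (log2 fold changes from -0.84 to -0.76, adjusted p from 0.0666 to 0.0824).

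Several lysosomal genes are abundant in macrophages, and the levels of macrophage and other cell type markers moved with some of them in 1 library. In Adam17ex PBS replicate 3 the 13 macrophage markers summed to 1274 CPM and Psap, Npc2, Ctsh and Lgmn together to 319.6 CPM, against 60.9 to 121 CPM for those 4 genes in the other Adam17ex PBS libraries. Of the 4, Ctsh and Lgmn are listed among the proteases. No rule set beforehand picked the 4 genes, and each was highest of its group in that library. Their sum therefore describes that library and tests no link with the markers. Ctsb, which is not among the 4, was also highest of its group in that library. For the lumenal genes Neu1 and Hexa that library was not the highest of its group. It was the lowest for Neu1, and Adam17ex PBS replicate 4 was above it for Hexa. The macrophage sums were 159.6 to 265 CPM in Adam17ex cerulein, 195 to 283 CPM in WT cerulein, 183 to 1274 CPM in Adam17ex PBS and 92.2 to 517 CPM in WT PBS, with 12 or 13 of 13 markers detected in each library and none at 0 over a group. Over macrophage markers, 4 of 10 tested fell with cerulein in Adam17ex and 1 fell and 1 rose in WT. Adam17ex PBS replicate 3 was also the highest of its group for fibroblast and stellate markers (1278 CPM, others 436 to 745 CPM), adipocyte markers (1422 CPM, others 198 to 1075 CPM), B and plasma cell markers (331 CPM, others 12.7 to 114 CPM) and T and NK cell markers (66.7 CPM, others 0 to 9.86 CPM). It was the lowest for acinar markers (166105 CPM, others 229514 to 293039 CPM). Ctsl was lowest within its group in that same library, at 284 CPM. The part of RNA from macrophages or these other cells in the results was not tested beyond the values without that library.

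**Figure D3:**
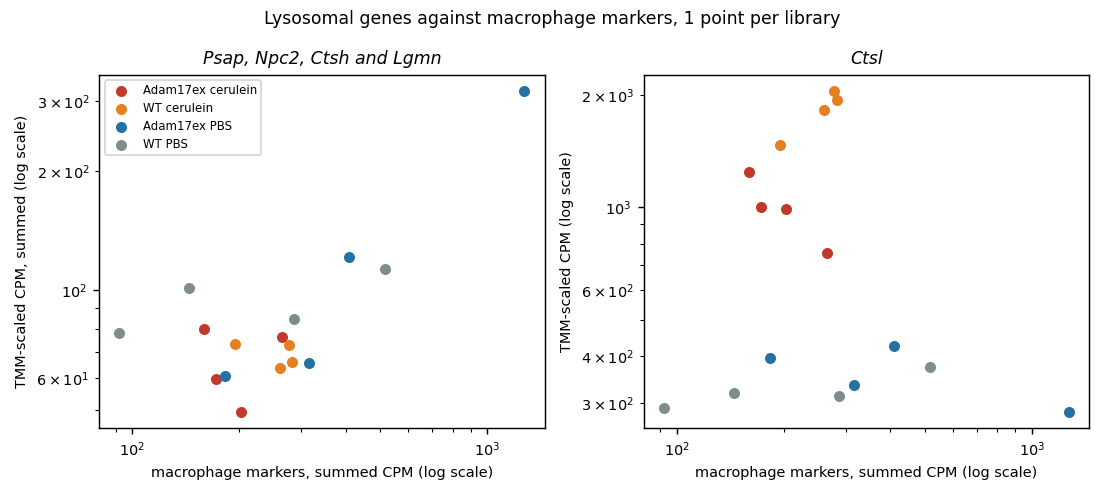
Summed level of Psap, Npc2, Ctsh and Lgmn (left) and level of Ctsl (right) against the summed level of 13 macrophage markers, all in TMM-scaled CPM on log axes, with 1 point per library coloured by group. On the left the 1 library at 1274 CPM of macrophage markers, Adam17ex PBS replicate 3, is also the highest at 319.6 CPM; on the right the same library is at 284 CPM and the cerulein libraries stand above all others.

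Of the 4 lysosomal membrane genes, Lamp1 fell and Cd63 rose in both genotypes. Lamp1 was at 115, 140.5, 130.03 and 147 CPM in Adam17ex cerulein and 149.9, 138, 132 and 134 CPM in WT cerulein. Lamp1 with PBS was at 155, 199, 167 and 227 CPM in Adam17ex PBS and 195, 223, 201 and 220.1 CPM in WT PBS. Within each genotype every cerulein library was below every PBS library. Lamp1, the gene for an abundant coat glycoprotein of the lysosome, fell in both genotypes, at -0.49 ± 0.16 (adjusted p = 0.0236) in Adam17ex and -0.58 ± 0.16 (adjusted p = 0.00571) in WT. The Lamp1 call in Adam17ex was lost without any of Adam17ex cerulein replicates 1, 3 or 4, Adam17ex PBS replicates 2 or 4 or WT PBS replicates 3 or 4 in turn (log2 fold changes from -0.48 to -0.32, adjusted p from 0.0563 to 0.176). Lamp2, its close relative, fell in WT, at -0.49 ± 0.17 (adjusted p = 0.0263), and had -0.17 ± 0.17 (adjusted p = 0.486) in Adam17ex. The Lamp2 call in WT was lost without any of Adam17ex cerulein replicates 2 or 4, WT cerulein replicates 1, 2 or 4, Adam17ex PBS replicate 3 or WT PBS replicates 2, 3 or 4 in turn (log2 fold changes from -0.49 to -0.40, adjusted p from 0.0502 to 0.106). Cd63, a tetraspanin gene, averaged 445 ± 72.6 CPM in Adam17ex cerulein, 529 ± 80.2 CPM in WT cerulein, 289 ± 49.6 CPM in Adam17ex PBS and 390.1 ± 34.9 CPM in WT PBS. It rose by 0.63 ± 0.18 (adjusted p = 0.0112) in Adam17ex and 0.46 ± 0.18 (adjusted p = 0.0466) in WT, and its pseudogene Cd63-ps, with which it can share reads, by 0.83 ± 0.20 (adjusted p = 0.00376) and 0.51 ± 0.19 (adjusted p = 0.0402). The WT call for Cd63 was lost without any of Adam17ex cerulein replicate 3, WT cerulein replicates 1, 2 or 4 or WT PBS replicates 1, 3 or 4 in turn (log2 fold changes from 0.41 to 0.47, adjusted p from 0.0628 to 0.122). Npc1, the membrane partner of Npc2 in cholesterol export, had 123 UMIs and passed in no comparison, with -0.07 ± 0.43 in Adam17ex and 0.38 ± 0.41 in WT.

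Of the proton pump genes, Atp6v1b2 rose in both genotypes, and Atp6v1a and Atp6v0d1 fell in WT. Atp6v1b2 and Atp6v1a encode the B and A subunits, which alternate in the ring that hydrolyses ATP. Atp6v1b2 was at 47.4, 65.0, 45.7 and 66.5 CPM in Adam17ex cerulein and 96.1, 60.5, 62.2 and 79.1 CPM in WT cerulein. Atp6v1b2 with PBS was at 10.2, 37.8, 31.4 and 33.5 CPM in Adam17ex PBS and 28.7, 34.2, 28.7 and 19.1 CPM in WT PBS. Atp6v1a was at 6.18, 18.2, 14.1 and 14.6 CPM in Adam17ex cerulein and 6.17, 9.73, 9.78 and 9.68 CPM in WT cerulein. Atp6v1a with PBS was at 10.2, 27.7, 21.6 and 17.7 CPM in Adam17ex PBS and 27.5, 26.2, 27.7 and 17.9 CPM in WT PBS. For Atp6v1b2 each cerulein library was above each PBS library, while for Atp6v1a cerulein was below PBS in WT and the Adam17ex groups overlapped. Atp6v1b2 rose by 0.96 ± 0.27 (adjusted p = 0.0111) in Adam17ex and 1.40 ± 0.25 (adjusted p = 0.000129) in WT. Atp6v1a fell in WT, at -1.48 ± 0.32 (adjusted p = 0.000676), and had -0.50 ± 0.34 (adjusted p = 0.272) in Adam17ex. The difference of effects was 0.97 ± 0.46 (adjusted p = 0.215). Atp6v0d1 was at 34.0, 15.6, 34.0 and 44.5 CPM in Adam17ex cerulein and 16.8, 20.5, 17.5 and 30.7 CPM in WT cerulein. Atp6v0d1 with PBS was at 20.3, 37.8, 31.4 and 69.0 CPM in Adam17ex PBS and 44.7, 48.0, 48.1 and 68.2 CPM in WT PBS. This membrane-sector subunit gene was lower with cerulein in WT, without overlap, and its Adam17ex groups overlapped. Atp6v0d1 fell in WT, at -1.11 ± 0.26 (adjusted p = 0.00166), and had -0.37 ± 0.27 (adjusted p = 0.315) in Adam17ex, with a difference of effects of 0.74 ± 0.38 (adjusted p = 0.26). Atp6v0c, the proteolipid of the membrane ring, had -0.24 ± 0.23 and -0.15 ± 0.22 and passed in neither genotype. Atp6v1h, a regulatory subunit gene, passed for genotype under cerulein, at 0.76 ± 0.24 (adjusted p = 0.0464) with 32.0 ± 10.4 CPM in Adam17ex cerulein and 19.2 ± 3.17 CPM in WT cerulein. The call was lost without any of Adam17ex cerulein replicates 2 or 4, WT cerulein replicates 1, 2, 3 or 4, Adam17ex PBS replicates 2 or 3 or WT PBS replicates 1, 2, 3 or 4 in turn (log2 fold changes from 0.58 to 0.82, adjusted p from 0.0505 to 0.21).

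Ratios between paired genes within a library need no scaling between libraries, and they are given as a description, since they repeat the tests above. The ratio of Sqstm1 to Nbr1 UMIs was 6.70 ± 1.04 for Adam17ex cerulein, 15.3 ± 3.59 for WT cerulein, 1.29 ± 0.525 for Adam17ex PBS and 1.26 ± 0.289 for WT PBS (SD, n = 4 each). Map1lc3a to Map1lc3b was 0.395 ± 0.145 for Adam17ex cerulein, 1.10 ± 0.206 for WT cerulein, 0.507 ± 0.144 for Adam17ex PBS and 0.500 ± 0.229 for WT PBS. Ctsl to Ctsb was 3.13 ± 0.474 for Adam17ex cerulein, 3.70 ± 0.453 for WT cerulein, 1.59 ± 0.702 for Adam17ex PBS and 1.63 ± 0.0544 for WT PBS, with 0.732 for Adam17ex PBS replicate 3. In these 3 ratios WT cerulein had the highest mean, although its Ctsl to Ctsb libraries overlapped those of Adam17ex cerulein. Gabarapl1 to Gabarap was 0.386 ± 0.0481 for Adam17ex cerulein, 0.361 ± 0.0596 for WT cerulein, 0.171 ± 0.0395 for Adam17ex PBS and 0.156 ± 0.0522 for WT PBS, and Atp6v1b2 to Atp6v1a was 4.76 ± 2.02 for Adam17ex cerulein, 9.08 ± 4.42 for WT cerulein, 1.43 ± 0.365 for Adam17ex PBS and 1.11 ± 0.129 for WT PBS. Both were higher in each cerulein library than in each PBS library.

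**Figure D4:**
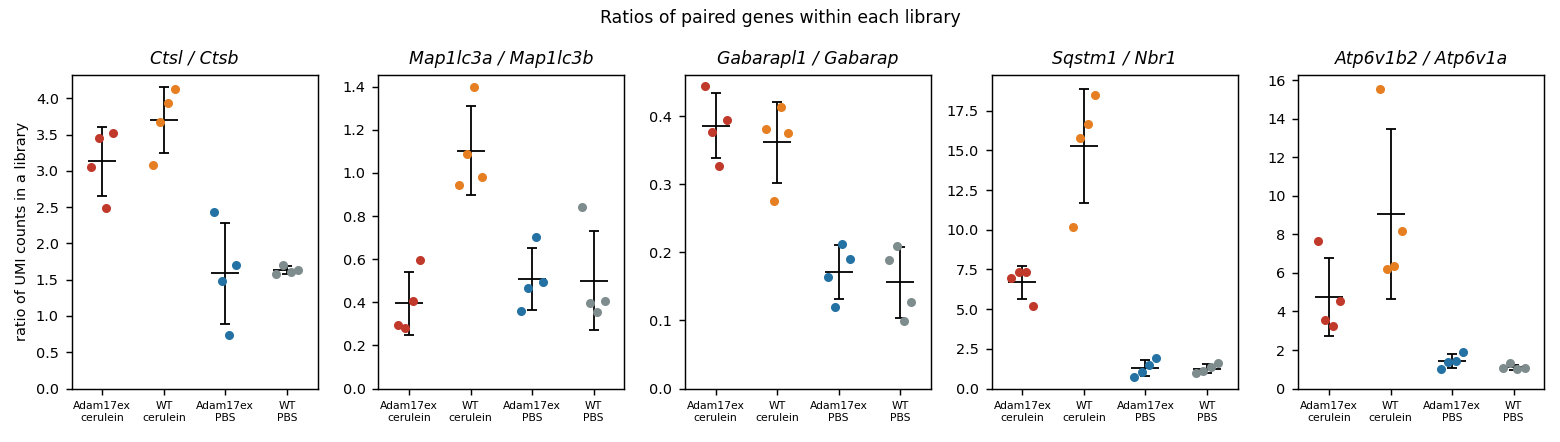
Ratio of the UMI counts of 2 genes within each library (y axis, from 0), for 5 pairs, by group; points are libraries, bars are group means and whiskers 1 SD (n = 4). Sqstm1 over Nbr1 averages 6.70 in Adam17ex cerulein and 15.3 in WT cerulein, and Map1lc3a over Map1lc3b 0.395 and 1.10.

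Under cerulein, Adam17ex pancreas had less Sqstm1, Ctsl, Ctsb, Map1lc3a and Map1lc3b and more Rb1cc1, Atg3 and Atp6v1h than WT pancreas. These 8 of 44 members passed, against 9.68% of all tested genes; 3 were higher (5.85% of all genes) and 5 lower (3.82%). The median over the 44 was -0.05, beside 0.01 over all tested genes. The cerulein effect itself differed between the genotypes for 5 members, all with the lower value in Adam17ex, namely Map1lc3a, Sqstm1, Ctsl, Ctsb and Map1lc3b, against 6.00% of all tested genes called in this test. Of the 44, 0 were higher (3.75% of all genes) and 5 lower (2.25%). Without the 3 shallow Adam17ex PBS libraries 1 of the 5 passed, Map1lc3a, and without Adam17ex cerulein replicate 3 or WT PBS replicate 3 the count was 2 (Map1lc3a and Sqstm1). It was 3 without Adam17ex cerulein replicate 2, WT cerulein replicate 2, Adam17ex PBS replicate 4 or WT PBS replicates 1 or 4. The 8 genotype calls became 4 without Adam17ex cerulein replicate 2 or WT cerulein replicate 1, and 5 without Adam17ex cerulein replicates 1 or 4 or WT cerulein replicates 2, 3 or 4. None of the proton pump, lumenal hydrolase, lysosomal membrane, conjugation or initiation genes passed that test of the difference, and Rb1cc1 came nearest among them at an adjusted p of 0.0768. The plot of genotype effects shows all 44 genes for both tests. Duct markers moved with the same groups: their sum was 414 to 466 CPM in Adam17ex cerulein, 953 to 1202 CPM in WT cerulein, 319.6 to 410.0 CPM in Adam17ex PBS and 319 to 362 CPM in WT PBS, with at least 6 of 7 markers detected in each library and none at 0 over a group. Of the 5 duct markers tested, Sox9, Krt19, Krt7 and Spp1 were lower and Muc1 higher in Adam17ex cerulein than in WT cerulein. The acinar sums given above were lower in every WT cerulein library than in every Adam17ex cerulein library, and 4 of 15 acinar markers passed, all higher in Adam17ex. The part of these shifts in the autophagy and lysosome results was not tested.

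**Figure D5:**
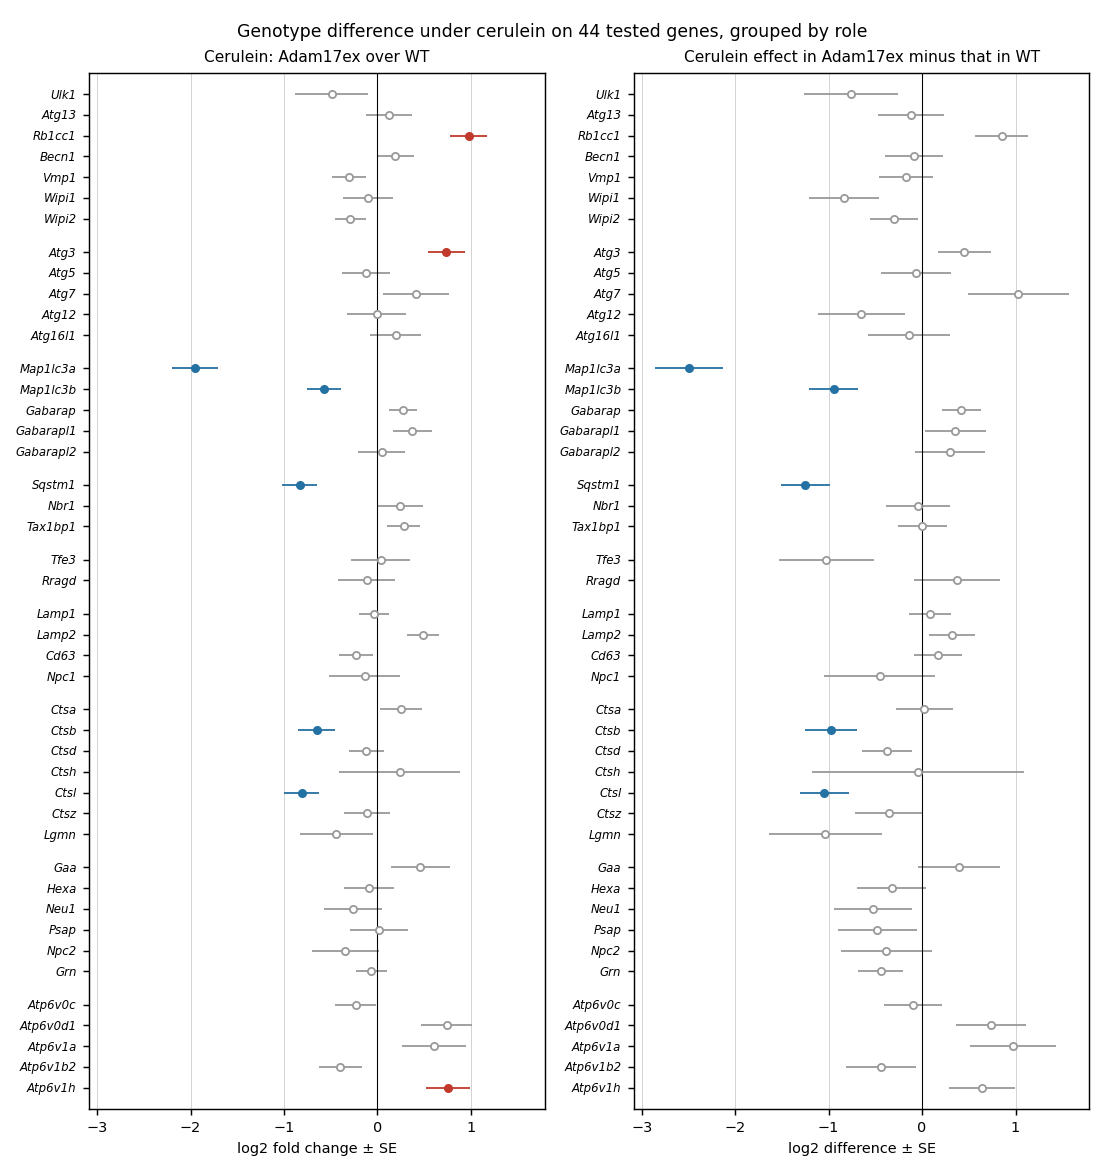
For the 44 tested genes grouped by role, the log2 fold change of Adam17ex over WT under cerulein (left) and the cerulein effect in Adam17ex minus that in WT (right), each ± SE; filled red points are higher and filled blue points lower at an edgeR adjusted p below 0.05, and open points did not pass. On the left 3 genes are higher and 5 lower; on the right 5 are lower, with Map1lc3a at -2.50.

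With PBS alone no member passed between the genotypes. The count was 0 of 44 by edgeR and 0 by DESeq2, against 1.36% of all tested genes, and 3 members had an unadjusted p below 0.05 (Wipi1, Tfe3 and Cd63). Wipi1 was at 43.8 ± 9.84 CPM in Adam17ex PBS and 26.6 ± 6.84 CPM in WT PBS (0.73 ± 0.28, edgeR adjusted p = 0.186). Tfe3 was at 15.7 ± 6.29 CPM in Adam17ex PBS and 8.16 ± 3.25 CPM in WT PBS (1.06 ± 0.42, edgeR adjusted p = 0.202), and Cd63 at 289 ± 49.6 CPM in Adam17ex PBS and 390.1 ± 34.9 CPM in WT PBS (-0.40 ± 0.19, edgeR adjusted p = 0.301). Fold changes of Adam17ex over WT were positive for 34 of the 44, with a median of 0.24 beside 0.03 over all tested genes; this comparison uses the 3 shallowest libraries and a WT group with no male.

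The wider pathway was read from 138 further genes in 6 lists, of which 136 were in the table and 101 were tested. In Adam17ex, 8 rose and 25 fell with cerulein, and the 33 called were 32.7% of the 101, near the 30.3% of all tested genes. In WT 9 rose and 32 fell, and the 41 called were 40.6%, near the 41.1% of all tested genes. The largest list, of other lysosomal enzymes and lumenal proteins, had 25 tested genes. In Adam17ex 1 rose and 11 fell, where 14.1% and 16.2% of all tested genes did, with a median of -0.69. In WT 1 rose and 10 fell, where 19.8% and 21.3% of all tested genes did, with a median of -0.66. The riser in both was Cstb, the gene for cystatin B, an inhibitor of cathepsins B, H and L inside the cell, which was at 84.3 ± 8.51 CPM in Adam17ex cerulein, 159 ± 27.2 CPM in WT cerulein, 54.2 ± 15.2 CPM in Adam17ex PBS and 47.0 ± 8.45 CPM in WT PBS. Its fold change was 0.63 ± 0.21 (adjusted p = 0.0237) in Adam17ex and 1.73 ± 0.20 (adjusted p = 3.38e-07) in WT, and it was lower in Adam17ex than in WT under cerulein, at -0.91 ± 0.19 (adjusted p = 0.00248). The cerulein effects differed by -1.09 ± 0.29 (adjusted p = 0.0246). Among those that fell were Gm2a, a glycolipid-binding activator, at -2.03 ± 0.46 (adjusted p = 0.00206) in Adam17ex, and Fuca1, a fucosidase gene, at -1.01 ± 0.20 (adjusted p = 0.000257) in WT. Of 18 other membrane and sorting genes, 6 were called in Adam17ex (33.3%) and 7 in WT (38.9%). A single one rose in each genotype, M6pr, a receptor that carries hydrolases to the lysosome, by 1.53 ± 0.20 (adjusted p = 4.44e-06) in Adam17ex and 1.41 ± 0.18 (adjusted p = 1.83e-06) in WT. Sort1, another sorting receptor gene, fell, at -1.94 ± 0.36 (adjusted p = 0.00034) and -2.17 ± 0.36 (adjusted p = 4.75e-05) and was 1 of 5 and 1 of 6 of that list to fall.

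Of 18 other autophagy genes tested, 1 rose and 1 fell in Adam17ex, and 3 rose and 1 fell in WT. The 2 and 4 called are 11.1% and 22.2% of the list, below the 30.3% and 41.1% of all tested genes. Trp53inp1, a stress-induced gene whose product binds ATG8 proteins, was at 194 ± 15.2 CPM in Adam17ex cerulein, 82.8 ± 20.1 CPM in WT cerulein, 34.3 ± 17.2 CPM in Adam17ex PBS and 19.0 ± 4.58 CPM in WT PBS. It rose by 2.59 ± 0.26 (adjusted p = 1.31e-07) in Adam17ex and 2.09 ± 0.26 (adjusted p = 1.48e-06) in WT, and was higher in Adam17ex than in WT under cerulein by 1.21 ± 0.22 (adjusted p = 0.0007). Among 11 other selective receptors, 4 fell and 0 rose in Adam17ex and 5 fell and 2 rose in WT (36.4% and 63.6% called). Bnip3, a mitophagy receptor gene, fell, at -1.95 ± 0.36 (adjusted p = 0.000291) and -2.39 ± 0.36 (adjusted p = 1.67e-05). Retreg1, a receptor gene for the endoplasmic reticulum, fell, at -1.47 ± 0.24 (adjusted p = 3.54e-05) in WT, and its cerulein effect was higher in Adam17ex by 1.62 ± 0.33 (adjusted p = 0.00468). Of 17 genes of nutrient sensing at the lysosome through the kinase complex TORC1, 4 rose and 3 fell in Adam17ex with cerulein, and 2 rose and 6 fell in WT. The 7 and 8 called are 41.2% and 47.1% of that list, beside 30.3% and 41.1% of all tested genes. Of the same 17, 4 were higher and 0 lower in Adam17ex than in WT under cerulein, where 5.85% of all genes were higher: Fnip1, Sesn2, Lamtor2 and Lamtor3. Sesn2, a stress-induced inhibitor of TORC1, was at 21.2 ± 2.50 CPM in Adam17ex cerulein, 5.58 ± 3.37 CPM in WT cerulein, 3.58 ± 3.28 CPM in Adam17ex PBS and 4.75 ± 1.42 CPM in WT PBS, with 1.81 ± 0.36 (adjusted p = 0.00178) for genotype under cerulein and 2.38 ± 0.67 (adjusted p = 0.0368) for the difference of effects. Of 12 other pump subunits and accessory genes, 1 rose (Atp6ap2) and 1 fell (Atp6v1c1, at -1.09 ± 0.32, adjusted p = 0.0135) in Adam17ex. In WT 0 rose and 4 fell (Atp6v1e1, Atp6v0a1, Atp6v1d and Atp6ap2), or 33.3% called, and 11 of the 12 fold changes were negative. Atp6ap2 rose in Adam17ex, at 0.65 ± 0.23 (adjusted p = 0.0385), and fell in WT, at -0.75 ± 0.24 (adjusted p = 0.0176). The effects differed by 1.40 ± 0.34 (adjusted p = 0.0152). Between genotypes under PBS, 1 of the 101 passed, Rptor, the gene for a TORC1 subunit, at 1.47 ± 0.36 (adjusted p = 0.0445). Over all tested genes 112 passed in that comparison, and from 14 to 407 did under the alternative settings. Whether the calls for the 101 genes, in any comparison, hold under the alternative settings was not tested.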

How the data were processed

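The deposited table holds UMI counts per gene and library; per the labels' protocols, total RNA of snap-frozen pancreas was primed at the poly(A) tail with a sample index and UMI, and the reads are sense. R 4.1.2, limma 3.50.0, edgeR 3.36.0 and the build GRCm38 (mm10) come from the submitters' processing notes. Which aligner, counter and UMI collapsing were used, and whether counting used strand, is not given in the sources used here. Every row carried a gene ID.

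The counts were tested with edgeR 4.0.16 in R 4.3.3: filterByExpr with a minimum count of 10, TMM factors, 1 coefficient per group, sex as covariate, all 16 libraries, quasi-likelihood F test, two-sided, Benjamini-Hochberg over 8236 genes, threshold 0.05. The SE is the size of the log2 fold change divided by the square root of F. DESeq2 1.42.0 was an alternative. Alternatives tried were other scaling (upper-quartile or RLE factors, or leaving digestive enzymes out of the scaling), no filter, no sex term, females only, only the compared groups, a replicate block, and leaving out each library or the 3 shallow Adam17ex PBS libraries; the separate values without Adam17ex PBS replicate 3 were chosen after seeing the data. The scripts were tested on simulated counts. CPM levels use the same TMM factors. Values in every library are given for members among the 24 with the smallest p in the cerulein and genotype comparisons, with at least 1 per role; of other pathway genes, up to 4 called per list and comparison were eligible. The members, lists and roles were chosen with earlier results of these data known, and no p was adjusted over a list alone. Replicates of a group differed by more than counting noise in all 24 pairs (chi-square per degree of freedom 3.06 to 9.50). Gene positions matched GENCODE M21 for all 46 members; 9 have a counted gene on the opposite strand over their 3′ end.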

Additional observations from a re-analysis of the deposited data

Results flagged for a closer look

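Within groups of 4 libraries, 9 of the 96 groups tested over 24 members held a library far from its 3 neighbours by Dixon's gap test, a test that flags about 5% of groups by chance. Rb1cc1 was at 68.5 CPM in Adam17ex cerulein replicate 4, where the other 3 were at 85.5 to 88.6 CPM. Map1lc3a was at 85.7 CPM in the same library, with the others at 30.4 to 39.1 CPM. Nbr1 was at 46.3 CPM in Adam17ex cerulein replicate 1 (others 33.8 to 35.2 CPM). In WT cerulein, Wipi1 was at 34.2 CPM in replicate 3 (others 18.4 to 20.3 CPM), and replicate 1 had Hexa at 27.3 CPM (others 16.1 to 17.3 CPM) and Atp6v1a at 6.17 CPM (others 9.68 to 9.78 CPM). In WT PBS, Cd63 was at 442 CPM in replicate 2 (others 369 to 375 CPM), and replicate 4 had Atp6v0d1 at 68.2 CPM (others 44.7 to 48.1 CPM) and Atp6v1a at 17.9 CPM (others 26.2 to 27.7 CPM).

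The cerulein effect differed between the genotypes by an interaction test in edgeR for 5 members. As log2 effect in Adam17ex minus that in WT, Map1lc3a had -2.5, Sqstm1 -1.25, Ctsl -1.05, Ctsb -0.97 and Map1lc3b -0.95.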

How the results depend on the processing

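No direction reversed in the recomputed fold changes of called members, of which 1297 stayed called and 228 lost their call; these can record losses only. In the other direction, 25 calls were gained over 15 settings by 9 members: Map1lc3a, Ctsb, Ctsd and Optn for cerulein in Adam17ex, and Atg3, Psap, Hexa, Neu1, Lgmn and Optn for cerulein in WT. The members called for cerulein in Adam17ex numbered 20, and 9 with females only and 10 without the 3 shallow Adam17ex PBS libraries; over all genes 2493 became 1425 and 1360. For genotype under cerulein the 8 members became 4 without a filter on low counts and 4 with females only, and the 797 genes became 271 with females only. For the difference of cerulein effects the 5 members became 2 without a filter, 1 with females only and 1 without the 3 shallow libraries, and the 494 genes became 82 and 152 under the last 2 settings. For genotype under PBS the members stayed at 0 and the 112 genes became 331 without a filter, 234 with DESeq2, 407 without the sex term, 22 with females only, 15 without the 3 shallow libraries and 14 with only the groups compared. The females-only and shallow settings use fewer libraries. With females only, cerulein calls were lost in Adam17ex for Tax1bp1, Atp6v1b2, Nbr1, Ctsa, Npc2, Cd63, Wipi2, Lamp1, Ctsh, Grn and Becn1. In WT they were lost for Lamp2, Cd63 and Gabarapl1. The genotype calls lost were Ctsb, Atg3, Map1lc3b and Atp6v1h, and of the differences Map1lc3a alone was kept. DESeq2 lost Becn1 in Adam17ex, Npc2, Gaa, Ulk1 and Ctsh in WT, and Atg3 and Atp6v1h for genotype under cerulein. Leaving out 1 library at a time gave, in the order Adam17ex cerulein effect, WT cerulein effect, genotype under cerulein, genotype under PBS and difference, 12 to 20, 19 to 29, 4 to 8, 0 to 0 and 2 to 5 members, and 2017 to 2614, 2921 to 3554, 403 to 915, 27 to 370 and 239 to 624 genes.

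Replicate numbers did not pair the libraries: 5 of 24 same-numbered pairs had deviations correlated above 0.1 (-0.224 to 0.2405), and 6 of 16 libraries matched their own number best. With the replicate block, members called were 18, 26, 7, 0 and 4 in the same order, and 229 genes passed for genotype under PBS. No scaling of the libraries moved the median of all genes by 0.1. Such scaling centres most genes near no change, so this median cannot show whether the scaling was sound.

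Limits: Npc1 and Atg7 rest on 123 and 146 UMIs over all libraries, and Tfeb and Optn did not pass the filter on low counts. Sex, depth and genotype overlap in the PBS groups, since WT PBS holds no male and Adam17ex PBS the 3 shallowest libraries.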

Other observations

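Together the 46 members took 0.378 to 0.440% in Adam17ex cerulein, 0.566 to 0.715% in WT cerulein, 0.241 to 0.392% in Adam17ex PBS and 0.276 to 0.357% in WT PBS of a library's UMIs. Every WT cerulein library was above every other library, and the Adam17ex cerulein and Adam17ex PBS libraries overlapped. Summed by role, the initiation and nucleation genes were at 425 ± 43.6 CPM in Adam17ex cerulein, 441 ± 31.8 CPM in WT cerulein, 296 ± 30.9 CPM in Adam17ex PBS and 267 ± 18.5 CPM in WT PBS (SD, n = 4 each). The cargo receptors were at 517 ± 84.7 CPM in Adam17ex cerulein, 682 ± 113 CPM in WT cerulein, 338 ± 38.5 CPM in Adam17ex PBS and 270.2 ± 34.4 CPM in WT PBS, and the ATG8 genes at 508 ± 68.7 CPM in Adam17ex cerulein, 668 ± 32.4 CPM in WT cerulein, 549 ± 58.9 CPM in Adam17ex PBS and 551 ± 33.2 CPM in WT PBS. These sums are weighted to the members with most counts and were not tested.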
